A study of Mus musculus with 6 samples.

Results

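Homeobox genes encode transcription factors that bind DNA through a homeodomain, and outside the Hox clusters they set out the axes, organs and cell types of the embryo. The 55 genes described here were listed by name from the Msx, Meis, Pbx, Pknox, Irx, Lhx, Lmx1, Isl, Pitx, Alx, Prrx, Emx, Otx, En, Shox, Gbx, Pax, Barx, Tgif, Cux and Zfhx families and as Six2 to Six6, and the Dlx genes, En1 and Lmx1b were left out. All 55 were found among the 21523 protein-coding genes used of the RefSeq table for GRCm38.p6. For each gene, peaks of the zinc-finger factor SP8 were counted where the peak centre lay inside the gene or within 10 or 100 kb of its start or end. Of the 1451 peaks in the list, 19 met the wider rule, and none of the 19 was shared by 2 members.

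The peaks come from chromatin immunoprecipitation sequencing of forelimb ectoderm, the surface layer of the limb bud, taken from C57BL6J mouse embryos at stage E10.5. The embryos were homozygous for an Sp8 knock-in allele (labelled Sp8FL KI) whose protein carries a FLAG tag, and an anti-FLAG antibody was used. Ectoderm pooled from 50 forelimb buds made up each replicate, and the matching inputs carried the same allele. The analysed list is named for replicate 1 of 2, so no peak has a replicate check and differences between peaks or genes were not tested over samples. The depth behind the peaks is unknown, and a peak list holds no expression with which to check the tissue against its markers.

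SP8 belongs to the SP and KLF family, whose members bind GC-rich sites such as the GC box GGGCGG and the related GGGTGG. In the limb bud it is needed in the ectoderm for the apical ridge, the strip of thickened epithelium at the tip that keeps the limb growing out. Many homeodomain proteins, among them the MSX, LHX and DLX proteins, bind sites built around TAATTA.

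SP8 peaks lay inside or close to 12 of the 55 homeobox genes. These were Msx1, Msx2, Barx2, Meis2, Pbx3, Pknox1, Irx5, Lhx4, Isl2, Six5, Cux1 and Zfhx3, each with a peak centre inside the gene or within 10 kb of it. The share was 21.8% (95% Wilson interval 12.9 to 34.4), beside 6.48% of all protein-coding genes (1394 of 21523). Such intervals cover counting error over genes only. They do not allow for the choice of the genes, which was made with earlier results of these data known. Within 100 kb the number rose by 1, to 13 of 55 or 23.6% (14.4 to 36.3), the added gene being Gbx2. The share of all protein-coding genes was then 20.1%, so the wider window did not set the homeobox genes apart. Between 10 and 100 kb outside a gene, the nearest peak was found for 1 member (1.82%) and for 13.6% of protein-coding genes.

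**Figure D1:**
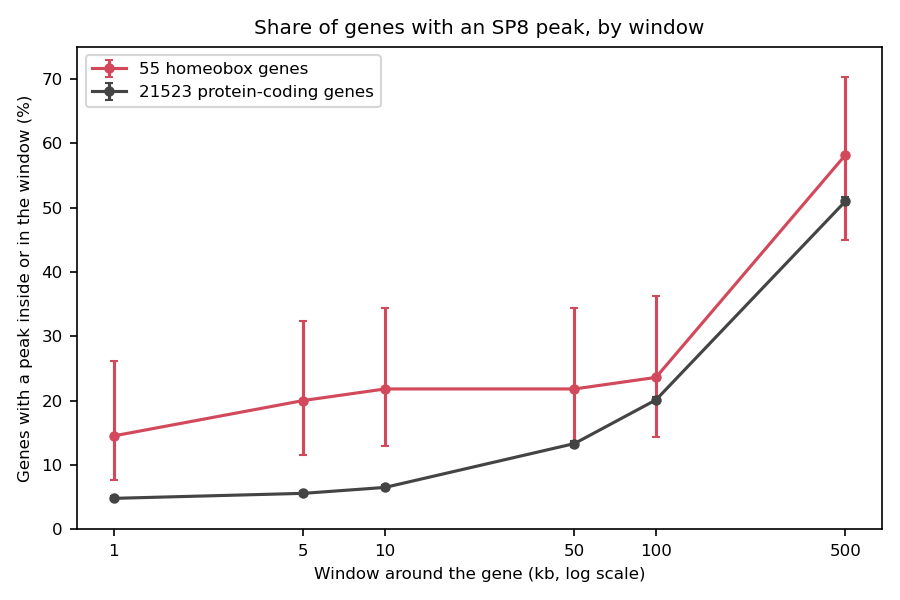
Share of genes (%) with an SP8 peak centre inside the gene or within the window on the x axis (kb, log scale), for the 55 homeobox genes and for 21523 protein-coding genes. Bars are 95% Wilson intervals. The homeobox share is nearly flat from 10 kb (21.8%) to 100 kb (23.6%), while the share of all genes climbs from 6.48% to 20.1%.

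At the narrowest window of 1 kb, 8 members had a peak (14.5%), beside 4.78% of all protein-coding genes. A peak centre lay inside 6 members (10.9%), beside 3.47% of all. Counted from the gene start or end alone, without regard to the inside, 9 members had a peak within 10 kb (background 5.40%) and 12 within 100 kb (background 19.9%). With the inside of the gene counted, longer genes more often had a peak at 10 kb. Of the 7 members longer than 100 kb, 4 had a peak inside or within 10 kb, where the share of all such genes was 12.5%. Of the 48 shorter members, 8 did (16.7%), where the share of all shorter genes was 5.72%. From the start or end alone, the shares within 10 kb were close, at 5.65% of all longer and 5.37% of all shorter genes. By that count, 1 of the 7 longer and 8 of the 48 shorter members had a peak. The members had a median of 1 protein-coding neighbour within 100 kb, beside 4 for all protein-coding genes, and the part of gene density in these shares was not tested.

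Promoter windows show where the peaks met gene starts. RefSeq windows of 300 bases, from 250 before to 50 after a start, were found for 40 of the 55 members, and 3 of the 40 (7.5%) were overlapped by a peak, beside 2.30% of protein-coding genes with a window (398 of 17274). These were Msx2, Lhx4 and Six5. A further window is shown with them because the peak next to Irx5 covers it: that of the long noncoding RNA gene Crnde. Sequences are given 5′ to 3′ from RefSeq, build GRCm38.p6, with matches to GGGCGG or GGGTGG on either strand and to TAATTA, which reads alike on both, in capitals. Matches may overlap.
Msx2, minus strand, chr13:53472731-53473030: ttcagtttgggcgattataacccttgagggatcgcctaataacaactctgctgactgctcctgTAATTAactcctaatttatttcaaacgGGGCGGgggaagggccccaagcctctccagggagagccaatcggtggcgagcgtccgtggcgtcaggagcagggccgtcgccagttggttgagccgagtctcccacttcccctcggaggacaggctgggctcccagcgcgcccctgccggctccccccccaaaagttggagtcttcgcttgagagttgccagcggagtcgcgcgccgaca
Lhx4, minus strand, chr1:155741978-155742277: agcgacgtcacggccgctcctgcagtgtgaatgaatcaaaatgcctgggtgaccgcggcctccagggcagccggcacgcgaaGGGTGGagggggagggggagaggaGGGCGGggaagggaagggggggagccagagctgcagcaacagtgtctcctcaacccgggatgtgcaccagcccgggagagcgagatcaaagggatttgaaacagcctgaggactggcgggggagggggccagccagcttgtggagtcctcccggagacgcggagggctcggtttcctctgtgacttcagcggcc
Six5, plus strand, chr7:19094294-19094593: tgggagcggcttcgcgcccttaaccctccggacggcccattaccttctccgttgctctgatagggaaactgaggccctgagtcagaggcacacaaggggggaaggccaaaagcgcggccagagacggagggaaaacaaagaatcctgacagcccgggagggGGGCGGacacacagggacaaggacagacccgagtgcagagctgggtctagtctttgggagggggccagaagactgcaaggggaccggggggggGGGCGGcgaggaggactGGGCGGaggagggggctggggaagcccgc
Crnde, minus strand, chr8:92356071-92356370: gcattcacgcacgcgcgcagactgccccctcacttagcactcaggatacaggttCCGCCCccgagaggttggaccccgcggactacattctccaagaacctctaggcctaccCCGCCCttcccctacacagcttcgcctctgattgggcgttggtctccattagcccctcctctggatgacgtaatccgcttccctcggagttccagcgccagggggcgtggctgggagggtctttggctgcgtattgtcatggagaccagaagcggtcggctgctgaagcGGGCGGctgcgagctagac

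With bases counted from 1 at the 5′ end of each window, the peak covered bases 1 to 262 at Msx2, 1 to 216 at Lhx4, 1 to 50 at Six5 and all 300 at Crnde. The Msx2 window held TAATTA at bases 64 to 69 and GGGCGG at 91 to 96, both under the peak. The Lhx4 window held GGGTGG at 83 to 88 and GGGCGG at 107 to 112, under the peak too. In the Six5 window there were 3 matches to GGGCGG, at 162 to 167, 255 to 260 and 272 to 277, and all 3 lay outside the part under the peak. The Crnde window held 3 GC boxes, at 55 to 60, 113 to 118 and 282 to 287, all under the peak. A match describes the letters and does not show a bound site.

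GC boxes were common in the windows of the whole table. GGGCGG stood in 29 of the 53 windows of the members (54.7%), in 46.7% of 21045 protein-coding windows and in 35.9% of all 32619. Among the 491 windows of any gene that a peak overlapped, 438 held it (89.2%), as did all 3 of the members' overlapped windows. GGGTGG was in 29 of the 53 member windows (54.7%), in 33.8% of protein-coding windows, in 31.6% of all and in 43.2% of those overlapped. TAATTA was in 5 of the 53 (9.43%), in 4.47% of protein-coding windows, in 5.25% of all and in 8 of the 491 overlapped (1.63%). The Msx2 window was 1 of 4 overlapped windows (0.815%) that held both GGGCGG and TAATTA. This pair was found in 0.884% of protein-coding windows and 0.733% of all windows. GC content was 61.0% at Msx2, 66.3% at Lhx4 and 66% at Six5. The median was 61.0% over the members' windows, 56.7% over protein-coding windows, 53.0% over all windows and 68.0% over overlapped windows. Member windows without a peak within 10 kb of the gene held GGGCGG in 24 of 45 cases (53.3%), and those with such a peak in 5 of 8.

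**Figure D2:**
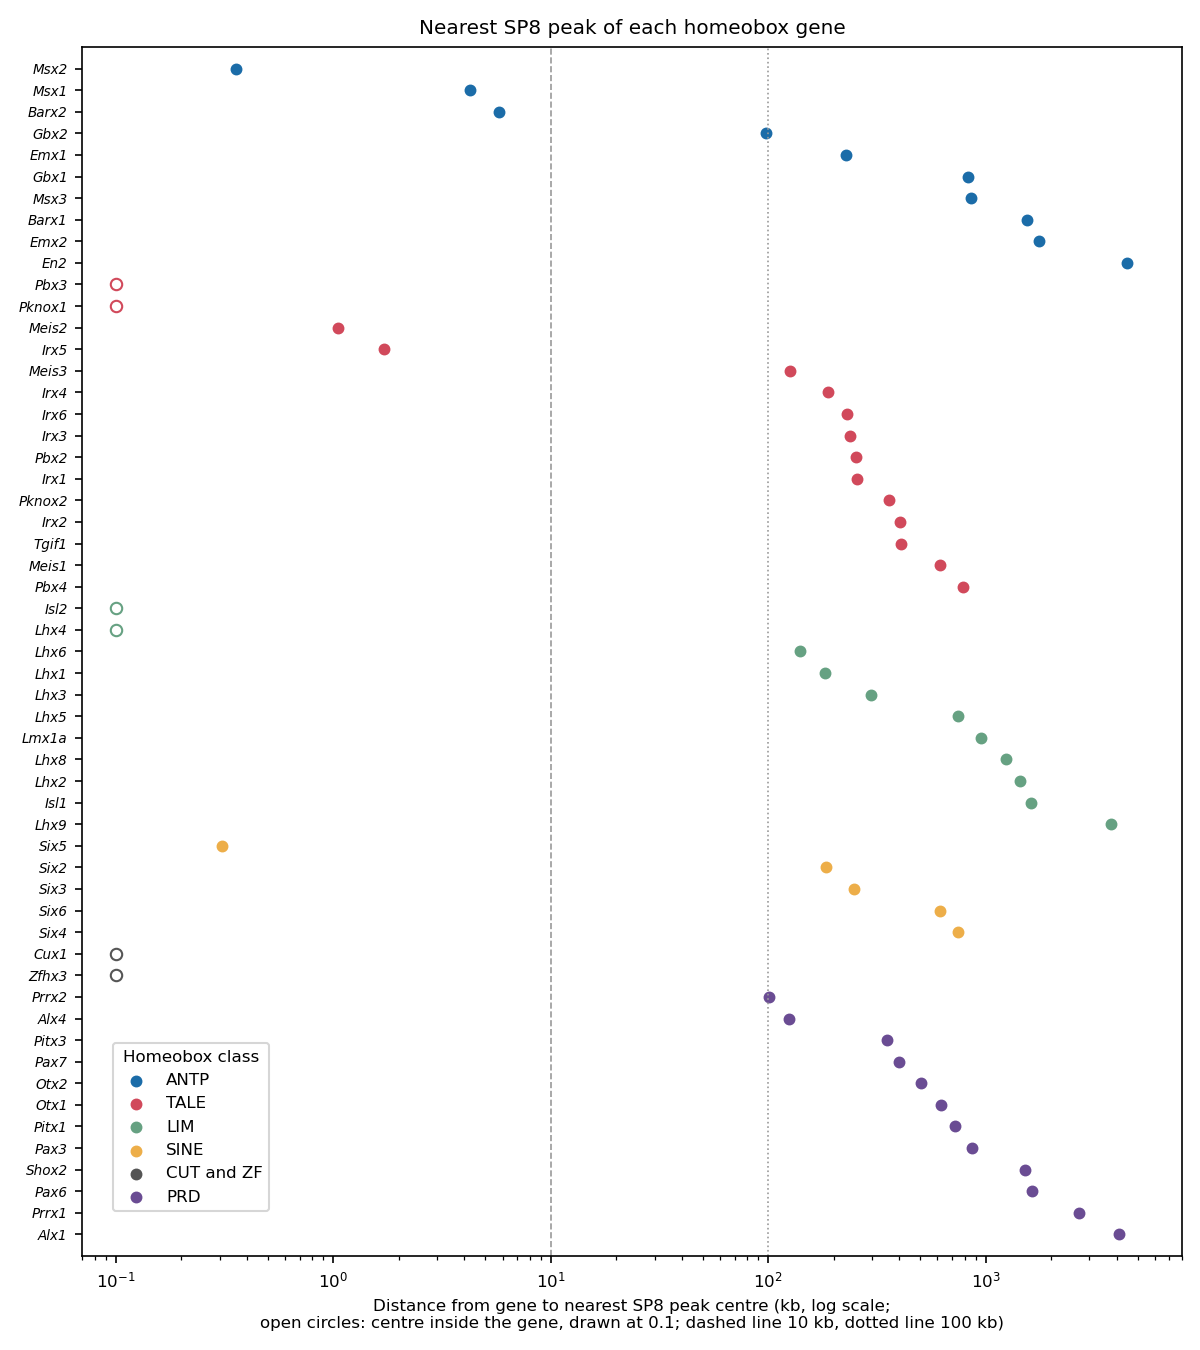
Distance (kb, log scale) from each of the 55 homeobox genes to its nearest SP8 peak centre, grouped by homeobox class. Open circles are genes with the centre inside, drawn at 0.1 kb. The 12 genes left of the dashed 10 kb line are separated from the rest by a gap up to Gbx2 at 97.5 kb, and no gene of the PRD class lies left of the dotted 100 kb line.

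The classes differed in how many genes had a peak close by, although each class is small and differences between classes were not tested. In the ANTP class, the one that also holds the Hox genes, 3 of 10 members had a peak inside or within 10 kb (Msx1, Msx2 and Barx2). In the TALE class, whose homeodomain has extra residues in a loop and whose MEIS and PBX proteins act as partners of HOX proteins, 4 of 15 did (Meis2, Pbx3, Pknox1 and Irx5). Of the LIM class, named for a zinc-binding protein-interaction domain, 2 of 11 did (Lhx4 and Isl2). Six5 was the only gene of 5 in the SINE class, and both Cux1 and Zfhx3 of the CUT and zinc-finger classes had a peak. None of the 12 genes of the PRD class did, a group that takes in the Pax, Pitx, Alx, Prrx, Otx and Shox genes. A count of 0 of 12 allows a share of up to 25%, which takes in the 6.48% of all genes.

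The Msx genes encode repressors that act downstream of BMP signals, and Msx1 and Msx2 are both active in limb ectoderm and mesenchyme. Msx2 had 2 peaks. The nearer, at chr13:53472769-53473504, was 735 bp wide, stood at number 294 of the list and had its centre 356.5 bp upstream of the gene start. The other, at chr13:53519732-53520050 and 318 bp wide, lay 47.1 kb upstream. Msx2 was the nearest protein-coding gene of both, and each centre also fell in a noncoding RNA gene, Gm33763 for the nearer and Gm34022 for the farther. Msx1 had 1 peak, at chr5:37828585-37829076, which was 491 bp wide and number 124 in the list. It lay 4.25 kb upstream of the Msx1 start, outside the promoter window and inside the noncoding RNA gene Gm33993. Msx3, which is known from the dorsal neural tube, had its nearest peak at 853.3 kb. Msx1 and Msx2 thus had a peak upstream of the start and Msx3 had none within 500 kb. A link between peaks and activity in the limb was not tested.

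Barx2, a homeobox gene of epithelia and muscle, had a peak at chr9:31840053-31840455, 402 bp wide and 5.79 kb outside the gene. Its list number of 123 was the lowest of the 19 peaks. Barx1, known from the stomach and the jaw, had its nearest peak at 1557 kb. Among the other ANTP genes, Gbx2 had a peak at chr1:90028534-90028733, 97.5 kb upstream and nearer to Iqca, whose gap was 13.5 kb. It was 199 bp wide, the smallest width in the list. Emx1 was 227.4 kb from its nearest peak, Gbx1 828.4 kb, Emx2 1759 kb and En2 4490 kb, the farthest of the 55. Emx and Gbx genes pattern the forebrain and the border of midbrain and hindbrain, and En2 the latter region.

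**Figure D3:**
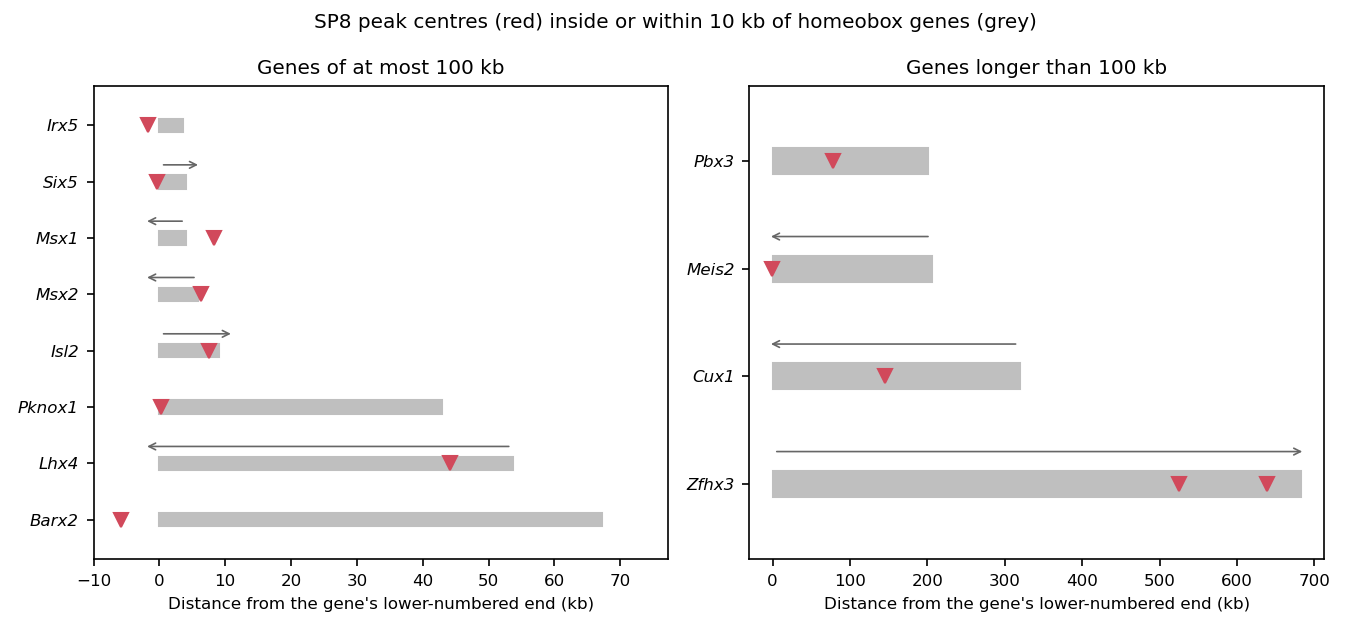
Positions of SP8 peak centres (red triangles) along the 12 homeobox genes (grey bars) with a peak inside or within 10 kb, in kb from the lower-numbered end of each gene. Arrows give the direction of transcription for the genes with a promoter window. The left panel holds the 8 genes of at most 100 kb and the right panel the 4 longer ones. Centres lie at or before the start at Six5 and Msx2, beyond the end at Meis2 and deep inside Pbx3, Cux1 and Zfhx3.

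Within the TALE class, the 4 genes differed in where the peak lay. At Pknox1, a MEIS relative that pairs with PBX proteins, the peak at chr17:31564768-31565299 was 531 bp wide and its centre was inside the gene, 311.5 bp from an end. A further peak lay 98.0 kb from Pknox1 and nearer to Cryaa. Pbx3, a PBX cofactor gene of 200.6 kb, had a peak of 337 bp inside it at chr2:34249621-34249958, 78.3 kb from its nearer end. Its other peak, 80.7 kb outside, fell in the noncoding RNA gene C230014O12Rik.

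Meis2, which marks the proximal limb in the mesenchyme, had its peak at chr2:115860089-115860338, 1.05 kb beyond the 3′ end of a gene of 206.3 kb. The distance to the listed start site was 204.4 kb, so the closeness to the gene was not closeness to its start. That peak was 249 bp wide and number 561 in the list. Meis1, a paralog with a like pattern in the proximal limb, had its nearest peak at 614.2 kb, and Meis3 at 125.6 kb.

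The Irx genes lie in a pair of clusters of 3 and take part in patterning of the limb, heart and nervous system. Irx5 was the only one of 6 with a peak within 100 kb, a count near the background of 20.1% of all protein-coding genes. Its nearer peak, at chr8:92355727-92356463, was 736 bp wide, the widest of the 19, and lay 1.70 kb outside the gene. The centre was also inside Crnde, 25 bp from an end of that gene, and the peak covered the whole Crnde promoter window shown above. Crnde was thus the nearer gene to this peak and Irx5 its nearest protein-coding gene. The other peak, of 262 bp at chr8:92408311-92408573, was 47.0 kb from Irx5. The nearest peaks of the other Irx genes were at 189.3 kb for Irx4, 229.7 kb for Irx6, 237.0 kb for Irx3, 255.8 kb for Irx1 and 404.9 kb for Irx2. Of the remaining TALE genes, the nearest peak was 252.9 kb from Pbx2, 360.8 kb from Pknox2, 406.4 kb from Tgif1 and 787.5 kb from Pbx4.

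In the LIM class, Lhx4, which acts with Lhx3 in the pituitary and in motor neurons, had a peak of 231 bp at chr1:155742062-155742293. The peak lay inside the gene, 9.55 kb from its outer end, but its centre was 150.5 bp upstream of the start site that the promoter table gives for Lhx4. Lhx3 had its nearest peak at 295.8 kb. Isl2, a motor neuron gene, had a peak of 528 bp at chr9:55546016-55546544. It was inside the gene, 1.39 kb from the 3′ end and 5.13 kb past the listed start, and had number 1311, the highest of the 19. Isl1, which is needed to begin the hindlimb, was 1622 kb from a peak.

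Lhx2 and Lhx9, which act in distal limb mesenchyme, were 1437 and 3755 kb from their nearest peaks. Lmx1a, the paralog of the dorsal limb gene Lmx1b, was 951.5 kb away. The other LIM genes, which mostly act in the nervous system and kidney, lay at 139.4 kb (Lhx6), 182.5 kb (Lhx1), 749.0 kb (Lhx5) and 1247 kb (Lhx8). No LIM gene had its nearest peak between 10 and 100 kb.

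Six5, a SINE gene known from the lens, had 2 peaks. That at chr7:19094132-19094343 was 211 bp wide and centred 306.5 bp upstream of the start. Its centre was also 416.5 bp from Dmpk, the gene next to Six5, and 13 protein-coding genes lay within 100 kb of Six5, the most of any member. The other peak, 33.2 kb beyond the end, lay inside Fbxo46. Six2, a kidney progenitor gene, was 184.9 kb from its nearest peak, Six3 247.0 kb, Six6 614.7 kb and Six4 746.2 kb.

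Cux1 and Zfhx3 are long genes that encode large DNA-binding proteins with several domains, and their peaks lay deep inside. Cux1, of 319.5 kb, held a peak of 257 bp at chr5:136393123-136393380. It was 172.7 kb past the listed start and also inside the noncoding RNA gene Gm16599. Zfhx3, the longest member at 682.3 kb, held peaks at chr8:108804804-108805058 (254 bp) and chr8:108918593-108918887 (294 bp). They were 90.3 and 204.1 kb past the listed start, which lies inside the gene and not at its 5′ end. Counted from the 5′ end, the centres lay at 77.0% and 93.7% of the gene's length. Their distances to the 3′ end were 156.7 and 42.9 kb. None of these 3 centres lay within 10 kb of an end of its gene.

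No PRD gene had a peak within 100 kb, but 0 of 12 allows a share of up to 25%, which takes in the 20.1% of all protein-coding genes. Prrx2 fell just outside that limit, at 100.9 kb, where Gbx2 at 97.5 kb was just inside. Prrx1, a marker of limb mesenchyme, was 2688 kb from its nearest peak, and Shox2, which is needed for the upper limb skeleton, 1512 kb. Alx4, an anterior limb gene, was 124.3 kb away and Alx1 4093 kb. Pitx1, which gives the hindlimb its identity, was 724.6 kb away, and Pitx3, a lens and midbrain gene, 352.3 kb. The head genes Otx1 and Otx2 were 623.8 and 504.7 kb away. The muscle and neural genes Pax3 and Pax7 were 867.3 and 398.7 kb away, and Pax6, the eye gene, 1641 kb. In 10 of the 12 the distance was at least 352.3 kb, and the median of the class was 674 kb, against 481 kb for all protein-coding genes. The LIM and ANTP medians, 749 and 528 kb, were above 481 kb too. Those of the TALE, SINE and CUT and zinc-finger classes, 237, 247 and 0 kb, were below it. Over all 55 members the median was 352 kb.

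The peaks at homeobox genes were of ordinary width and list position. The 13 peaks inside or within 10 kb of a member had a median width of 337 bp, from 211 to 736 bp, beside 336 bp for all 1451 peaks. Over all 19 peaks the median was 294 bp. Their median list number was 704, beside 726 for the whole list, and 10 of the 19 were numbered up to 725. What the order of the list stands for is not stated.

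The member was the nearest protein-coding gene for 16 of the 19 peaks, the exceptions being the peak of Gbx2 and the farther peaks of Six5 and Pknox1. By gene, it was so for the nearest peak of 12 of the 13 members with a peak within 100 kb. With genes of every type counted, the member was the nearest gene for 8 of the 13. The like counts over all protein-coding genes were not made. Members also had fewer protein-coding neighbours within 100 kb, with a median of 1 beside 4. A centre inside a long noncoding RNA gene was found for 6 of the 19 peaks (31.6%), and for 185 of the 1447 peaks placed on chromosomes (12.8%). This share was not computed for peaks near other gene families, and the difference was not tested.

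**Figure D4:**
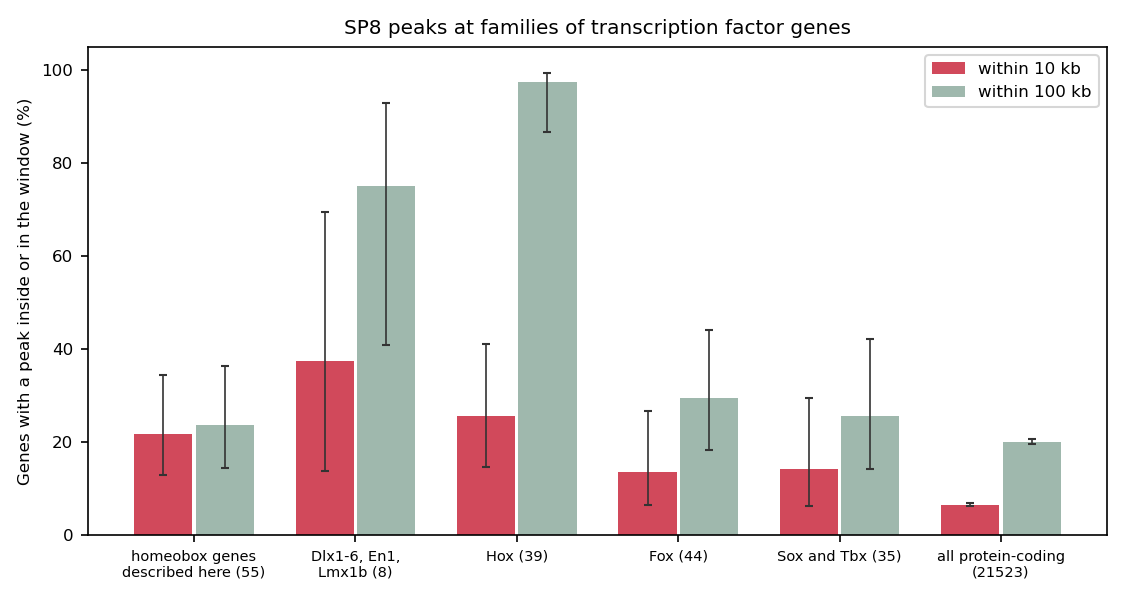
Share of genes (%) with an SP8 peak centre inside or within 10 kb (red) and 100 kb (green) for the 55 homeobox genes, the 8 homeobox genes left out of them, Hox, Fox, Sox and Tbx genes and all protein-coding genes. Bars are 95% Wilson intervals. The 2 bars nearly coincide for the 55 genes (21.8% and 23.6%) and lie far apart for Hox genes (25.6% and 97.4%).

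Beside other transcription factor families, the 55 genes stood in the middle at 10 kb and had the lowest share of these families at 100 kb. These differences were not tested. Of the 8 homeobox genes left out by name, 3 had a peak inside or within 10 kb (37.5%) and 6 within 100 kb (75%). Dlx1 and Dlx2, a neighbouring pair of ectoderm and forebrain genes, had one inside, and Lmx1b had one at 1.10 kb. En1, the ventral ectoderm gene, had its nearest peak at 14.0 kb, Dlx4 at 64.7 kb and Dlx3 at 85.7 kb, while Dlx6 and Dlx5 were 265.5 and 279.95 kb away. Among 39 Hox genes the numbers were 10 (25.6%) and 38 (97.4%), and since Hox genes stand side by side they share peaks. Among 44 Fox genes they were 6 (13.6%) and 13 (29.5%), and among 35 Sox and Tbx genes 5 (14.3%) and 9 (25.7%). The intervals of the 55 genes and of the Fox, Sox and Tbx genes overlapped at both windows.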

How the data were processed

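Per the labels, 6 libraries were made: 2 SP8-FLAG immunoprecipitations, 2 inputs, and 1 H3K4me2 immunoprecipitation with 1 input. The authors' deposited list of SP8 peaks, named for replicate 1, q 0.1 and fold 3, was analysed, and the other libraries were not analysed here. It holds chromosome, start, end and a running number. The submitters' processing notes name FastQC, SAMtools, TopHat2, deepTools and MACS2, and the builds GRCm38 and mm10. The control used, any pooling and whether starts count from 0 or 1 are not given in the sources used here.

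Peaks were placed by centre on 49214 genes of the RefSeq table (49997 less 783 on chromosome Y, without a chromosome or starting before 3000 kb). Width is end minus start. The 4 peaks on contigs entered the widths and list numbers of the whole list only. Strand came from the RefSeq promoter table. Distances were computed in Python 3.11.15 (numpy 2.4.6, pandas 2.3.3), and the code was tested on planted peaks. Every member was named, those with a peak within 10 kb in full. Members and lists were chosen with earlier results of these data known. No set test was made.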

Additional observations from a re-analysis of the deposited data

How the results depend on the processing

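Over 7 results and 28 alternatives, 5 of them added after the data were seen, 21 values stayed within 1.5 times the reported count or inside the interval of the median, and 7 did not. The 12 members with a peak within 10 kb became 5 of 40 when the distance to a listed start site was used. Beside that stood 4.36% of the protein-coding genes with a listed start. The number was 7 with the peaks numbered up to 725 (3.23% of all protein-coding genes). It was also 7 with the peaks of at least the median width (3.49%). The 13 members within 100 kb became 7 of 40 by start site (17.9% of protein-coding genes with a listed start). They became 7 with the wider peaks (11.4% of all protein-coding genes) and 32 with a window of 500 kb (51.0%). The 3 of 40 members with an overlapped promoter window became 1 of 40 when the peak centre had to lie inside. Beside that stood 276 of 17274 protein-coding genes with a window. The start-site setting drops the members without a listed window, and the list settings use fewer peaks. With peaks inside a gene counted only by their distance to an end, 9 and 12 members had a peak. No paired analysis was possible because a list of 1 replicate was analysed, which also left no replicate to leave out. Since depth is unknown, a gene without a peak cannot be told apart from one bound below the calling threshold.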

Other observations

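Beyond 100 kb, 19 further members had their nearest peak within 500 kb, and 23 had none in that range, 11 of them none within 1000 kb. Some of these distant peaks stood between members of a cluster. The peak at chr13:72219328-72219667 (339 bp) was 255.8 kb from Irx1 and 404.9 kb from Irx2, and that at chr13:73070192-73070479 (287 bp) was 189.3 kb from Irx4 and 436.1 kb from Irx2. The nearest protein-coding gene of the former was Irx1 and of the latter Irx4. Six2 and Six3 had the same nearest peak, at chr17:85872935-85873449 (514 bp), 184.9 and 247.0 kb away and nearer to Srbd1.

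A few of the distant peaks, picked after their nearest genes were seen, were nearest to genes of signalling pathways. Such genes were not counted over all peaks, so these examples do not show a signalling theme at the members. The peaks 235.8 and 270.4 kb from Msx2 were nearest to Ror2, a receptor for Wnt ligands. A peak 295.8 kb from Lhx3 was nearest to Notch1, and a peak 392.1 kb from Pitx3 was nearest to Fgf8, the ridge growth factor gene. Counted from the gene outwards, so with peaks inside and close by included, 58.2% of the members and 51.0% of all protein-coding genes had a peak within 500 kb.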
